A study of Glycine max with 23 samples.

Results

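The genes described here are GSTU13, GSTU41, GSTIR and GSTU30, 4 soybean genes with glutathione S-transferase (GST) symbols whose signal differed between regions of the young seed. They were found by symbol in the annotation of the array's probe sets or in the RefSeq gene table, and only probe sets annotated to 1 gene were taken. This gave 10 probe sets of the 37593 soybean probe sets on the array, and 4 of the 6031 genes named on it. They were selected on their measured signal across the seed regions, so their levels there are given as a description, with no test. Of the 10 probe sets, 8 passed the filter on dim signal explained below, and 2 probe sets of GSTU13 did not.

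Glutathione S-transferases couple the tripeptide glutathione to electrophilic compounds, and some also reduce peroxides or carry small molecules such as flavonoids without altering them. The tau class, written GSTU, is a large class of plants and is known in crops for the detoxification of herbicides and for rising after stress or auxin. Soybean makes homoglutathione, a close relative of glutathione with another last amino acid, and its transferases can use it. GSTIR is counted here by its symbol alone: the annotation gives it the synonym GmTIR but no role, and none is given here.

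The study measured RNA from seeds of the cultivar Asgrow A3237 with embryos at the heart stage, when the cotyledons begin to form, on 23 Affymetrix Soybean Genome Arrays. In all, 8 compartments were cut from paraffin sections by laser capture. The seed coat gave 5 of them with 2 arrays each, namely endothelium (the innermost layer), epidermis, hilum (the scar where the seed joins the pod), inner integument and outer integument. Endosperm, embryo proper and suspensor (the stalk that holds the embryo and feeds it) had 3 arrays each, and ground whole seed and ground leaf had 2 each. No group carried a mutation, transgene or treatment. The labels call the replicates biological but tie none to a single plant, so the spread behind each p-value may be partly technical, and the p-values cover nothing beyond it.

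Levels are array signals on a linear scale, and a level of 1 probe set is not comparable with that of another. Background on each array was the 95th percentile of the signal of the 23350 pathogen probe sets on the same array. It was 420.1 on suspensor replicate 1 and 404.9 on endosperm replicate 1, and between 86.3 and 231.4 on the other 21 arrays. The soybean probe sets above background numbered 13378 to 23564 per array. In the embryo proper, the 4 embryo markers LEC1-A, H1, PHANa and PHANb were above background on every array. LEC1-A and H1 were below it on every leaf, endothelium, epidermis, hilum and outer integument array, but PHANa and PHANb were above it on all of these, with the brighter probe set of PHANb at 929.7 in embryo proper, against 2501.7 in leaf. LEC1-A averaged 4937 in embryo proper, against 11474.9 in suspensor. The 3 seed coat markers (the MADS-box genes AGL1L and SEP1, and ANR1 of proanthocyanidin synthesis) summed to 15153.2 to 37366.2 in coat regions, although ANR1 was below background on both outer integument arrays and on inner integument replicate 2, and read 517 and 6692.1 in endothelium. In captured or ground tissue, fewer cells of a type and less RNA per cell cannot be told apart.

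GSTU13, a tau-class transferase (gene ID 547582), was brightest in the suspensor. Its brightest probe set read 1324.5, 1382.2 and 904.4 in the embryo proper, against 6314.3, 7514 and 7707.5 in the suspensor. Endosperm read 392.3, 244.4 and 210.9. Endosperm replicate 1 was the 1 array of 23 on which this probe set was not above background. Every suspensor array was thus above every embryo proper array, and every embryo proper array above every endosperm array. In the seed coat the hilum arrays read 2042 and 3036.8 and the endothelium arrays 1419.4 and 1046.9. Inner integument read 952.7 and 299.8, outer integument 429.9 and 335.1, and epidermis 315.5 and 369.7. Hilum was the highest coat region, and the 2 inner integument arrays were far apart.

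The suspensor mean of GSTU13 was 7179 ± 755 (SD, n = 3), which is 2.83 times the hilum mean of 2539 ± 703 (SD, n = 2). The hilum mean was 2.06 times the endothelium mean of 1233 ± 263 (SD, n = 2), and neither of these neighbouring pairs overlapped. Below that the order was endothelium, embryo proper, leaf, whole seed, inner integument, outer integument, epidermis and endosperm, and each of these groups overlapped the next. Without suspensor replicate 1, the suspensor mean was 7611, and without endosperm replicate 1 the endosperm mean was 227.7, against 282.5 with it. On the log2 scale used for the model, embryo proper minus suspensor was -2.58, endosperm minus the mean of embryo proper and suspensor was -3.34, and hilum minus the other 4 coat regions was 2.17.

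GSTU41, also of the tau class (gene ID 547580), was brightest, by signal, in the suspensor as well, but its next levels lay elsewhere. Its brightest probe set was above background on all 23 arrays. It read 4366.6, 4294 and 4281.5 in the embryo proper, against 21341.5, 22217.9 and 26105.2 in the suspensor. Endosperm read 1760.4, 2508.6 and 2917.4, below both embryo regions. The 5 coat regions were lower than the embryo, and endothelium was the highest of them with 2609 and 1478. Inner integument read 610.6 and 550.5, epidermis 514.9 and 510.2, outer integument 305.8 and 155.9, and hilum 177.4 and 261.8. Endothelium did not overlap the other coat regions, and outer integument and hilum overlapped each other.

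The suspensor mean of GSTU41 was 23220 ± 2535 (SD, n = 3), or 24160 without suspensor replicate 1. Leaf came next at 9568 ± 3742 (SD, n = 2), then embryo proper at 4314 ± 46.0 (SD, n = 3). Measured over each array's own background, which was lower in leaf, suspensor and leaf were close, at 6.83 and 6.68 (log2). By that measure the gene's dimmest probe set was higher in leaf, at 1.3, against 0.59 in suspensor. Endosperm, with a mean of 2395, overlapped endothelium, with a mean of 2044. Seed coat minus embryo and endosperm regions was -3.60 on the log2 scale, and endothelium minus the other 4 coat regions was 2.45. Hilum, the second highest compartment for GSTU13, was the lowest group for GSTU41, with a mean of 219.6.

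**Figure D1:**
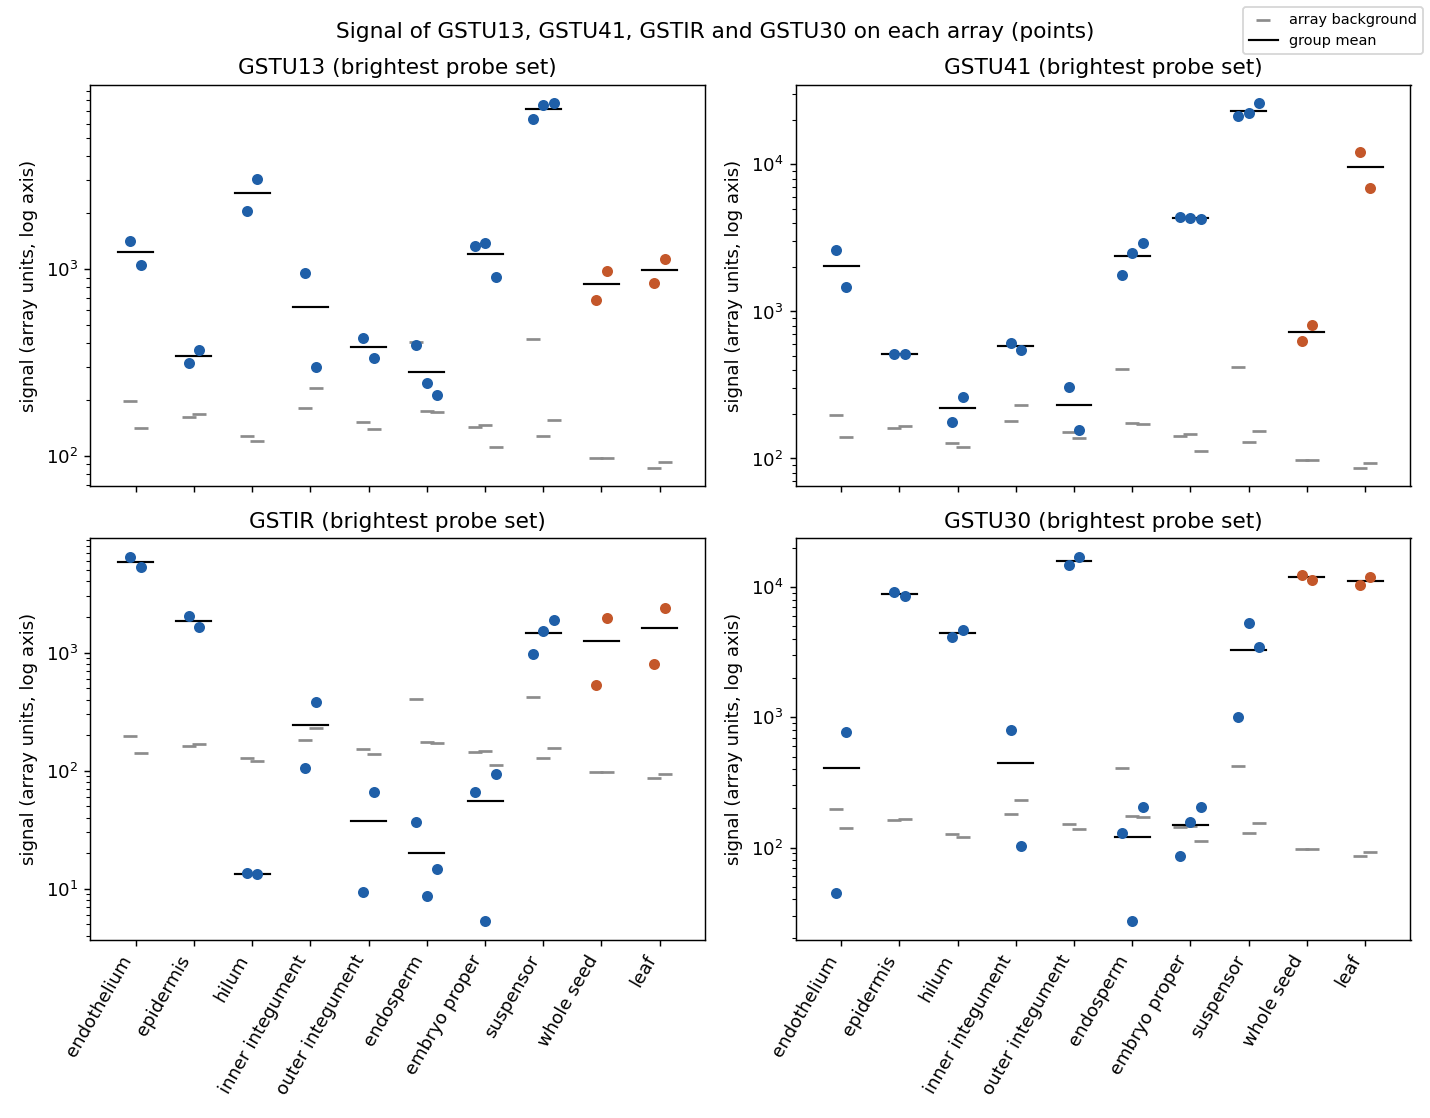
Signal of the brightest probe set of GSTU13, GSTU41, GSTIR and GSTU30 on each of the 23 arrays, by group, on a log axis. Points are arrays (blue for captured compartments, orange for ground whole seed and leaf), black bars are group means and grey ticks are the background of each array. GSTU13 and GSTU41 peak in the suspensor, GSTIR in the endothelium and GSTU30 in the outer integument, and many GSTIR and GSTU30 points lie below the background ticks.

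GSTIR (gene ID 100301898) was brightest in the endothelium. Its brightest probe set read 6493.7 and 5268.1 in endothelium and 2043.5 and 1640.5 in epidermis, the innermost and outermost coat layers. Elsewhere in the coat it was far lower. Inner integument read 105.3 and 381.9, outer integument 9.3 and 65.9, and hilum 13.5 and 13.4. Of these 6 arrays only inner integument replicate 2 was above background. Outside the coat, the embryo proper read 65.5, 5.3 and 94.1, against 976.8, 1518.2 and 1888.8 in the suspensor. Endosperm read 36.9, 8.7 and 14.8. No embryo proper or endosperm array was above background, while all 3 suspensor arrays were.

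The endothelium mean of GSTIR was 5881 ± 867 (SD, n = 2), which is 3.19 times the epidermis mean of 1842 ± 285 (SD, n = 2) with no overlap. Epidermis, leaf, suspensor and whole seed followed, and each of these overlapped the next in that order. The probe set was above background on every array of 5 groups and on 12 arrays in all. Since the dim regions were below background, the embryo proper was at least 9.6-fold lower than the suspensor. The hilum was at least 4.1-fold lower than the mean of the other 4 coat regions. The outer integument was at least 3.2-fold lower than the mean of its other 4. Such a bound sets the mean of the bright side against the background of the dim arrays, or against the gene's own dim reading if that lay above it. In both coat comparisons the sides overlapped, since the other 4 regions include arrays below background, and hilum and outer integument were not told apart. Without suspensor replicate 1 the suspensor mean was 1704, against 1461 with it.

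GSTU30, of the tau class (gene ID 547579), was brightest, by signal, in the outer integument. Its single probe set read 14738.9 and 17181.8 in outer integument, 9262 and 8590.6 in epidermis, and 4177.8 and 4716.7 in hilum. The inner layers of the coat were dim and uneven. Inner integument read 794.7 and 103.2 and endothelium 45.0 and 775.2, so 1 array of each was below background. The embryo proper read 85.4, 158.2 and 206.5, against 1009.9, 5297.2 and 3487.5 in the suspensor. Endosperm read 128.5, 27.1 and 203.4. Without suspensor replicate 1 the suspensor mean was 4392, against 3265 with it. Suspensor did not overlap embryo proper or endosperm, and its 3 arrays were far apart.

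The outer integument mean of GSTU30 was 15960 ± 1727 (SD, n = 2), which is 1.33 times the whole seed mean of 11970 ± 762 (SD, n = 2) with no overlap. Whole seed and leaf overlapped, epidermis came next at 8926 ± 475 (SD, n = 2), and hilum overlapped suspensor. Inner integument, endothelium, embryo proper and endosperm formed the low end, where each group overlapped the next. Measured over each array's own background, which was lower in ground tissue, GSTU30 averaged 6.78 (log2) in outer integument, against 6.94 in whole seed and 6.97 in leaf, so the order of these 3 groups depends on the scale. Outer integument minus the other 4 coat regions was 3.63 on the log2 scale, with no overlap. Endothelium minus the other 4 was -4.09, but the sides overlapped and only 1 of the 2 endothelium arrays was above background.

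Among the suspensor arrays, some seed coat markers were lowest on the same array as the brightest probe sets of these genes. In suspensor replicates 1, 2 and 3, AGL1L read 648.5, 2942.7 and 2786.2, and ANR1 read 348.5, 1914.3 and 1435.3. SEP1 read 311.3, 119.1 and 226.5 on the same arrays, and 1 of the 3 coat markers was above background on every suspensor array. The summed coat markers were 15153.2 to 37366.2 in the coat, 363.9 to 542.9 in endosperm and 235.1 to 249.5 in embryo proper, against 1308.3 to 4976.1 in suspensor. By their brightest probe sets, all 4 genes were lowest on suspensor replicate 1, as were AGL1L and ANR1. That array also had the highest background. A second GSTU41 probe set was instead highest on replicate 1, at 21069.9, against 12773.7 and 16128.5 on replicates 2 and 3. A second GSTIR probe set was also highest there, at 269.2 (below background), against 220.2 and 204.8. By their brightest probe sets, GSTU13 and GSTU41 read higher in every suspensor array than in any coat array, and GSTIR and GSTU30 did not. The part of coat RNA in the suspensor level of GSTU30, GSTIR, GSTU13 or GSTU41 was not tested.

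The probe sets of a gene did not all show the same levels. GSTU41 had a second bright probe set, which read 3784.6, 3541.7 and 4689 in the embryo proper, against 21069.9, 12773.7 and 16128.5 in the suspensor. Its correlation with the brightest probe set over the 23 arrays was 0.975, a description only, since the arrays share groups. In endothelium it read 1988.2 and 991.2, and it was not above background on any epidermis, hilum or outer integument array. The third probe set of GSTU41 stayed between 30.2 and 415, was above background on 10 arrays and correlated at 0.381.

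The other probe sets of GSTU13 and GSTIR were dim. Over the 23 arrays the second probe set of GSTIR lay between 9.6 and 282.7, was above background on 11 arrays and correlated at 0.677 with the brightest. Its highest mean was again in endothelium, at 267.8, but endothelium overlapped suspensor, at 231.4. Over each array's own background this probe set was higher in whole seed and leaf, at 1.1 and 0.87 (log2), against 0.69 in endothelium. The other 3 probe sets of GSTU13 correlated at -0.046, 0.075 and -0.19 with the brightest. One of them was above background on 3 arrays. Its highest reading, 276.8 on endosperm replicate 1, was below the background of 404.9 on that array. The other 2 were above background on none. The regional pattern of GSTU13 therefore rests on 1 probe set. By the array's naming, probe sets ending in _s_at or _x_at can also match other transcripts, which are often close relatives within a family, so the readings of GSTU41 and GSTU30 may include them.

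**Figure D2:**
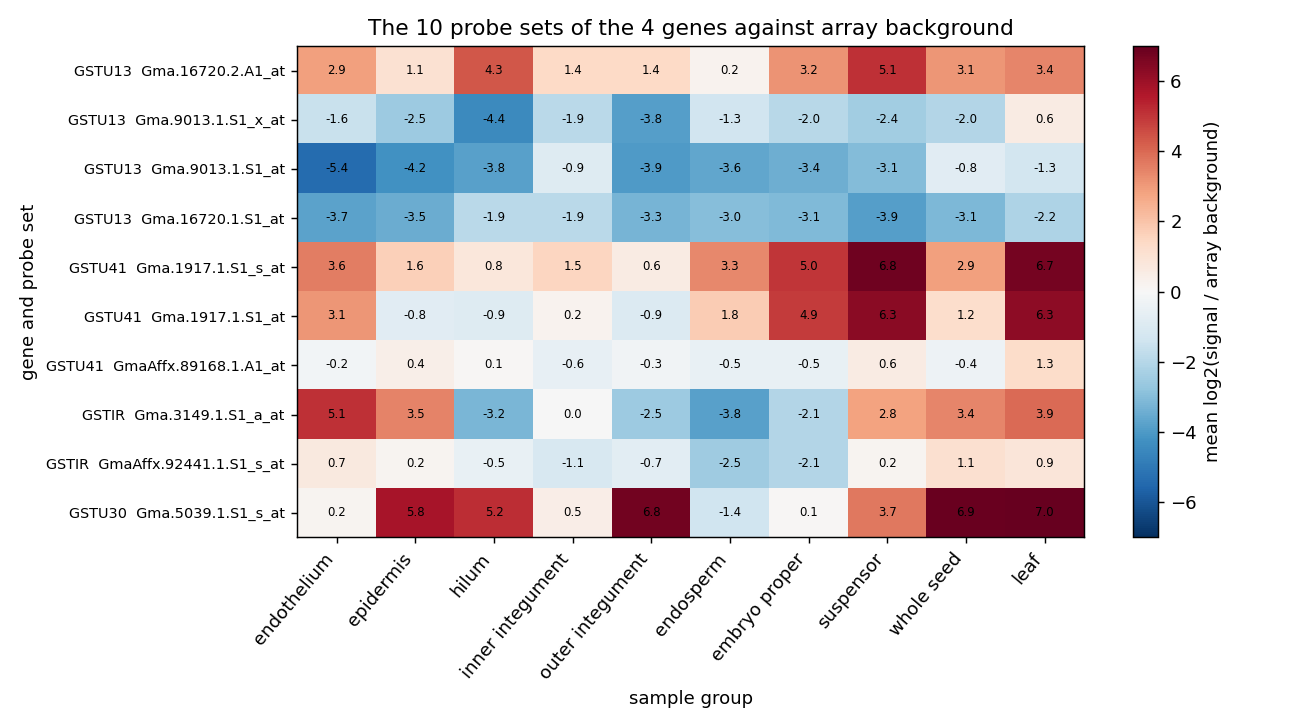
Group means of log2(signal over array background) for all 10 probe sets of the 4 genes, rows being probe sets and columns the 10 groups. Values above 0 (red) are above background and values below 0 (blue) below it. Among captured compartments both bright probe sets of GSTU41 are highest in the suspensor, and the dim probe sets of GSTU13 stay near or below 0.

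Whole seed against leaf, which uses arrays of ground tissue outside the seed regions, was the comparison tested for these genes. Its result was known when the genes were chosen, so the tests are not free of that choice. GSTU41 was lower in whole seed, by both of its bright probe sets. It read 630.8 and 813.7 in whole seed, against 12214 and 6922.6 in leaf, with no overlap. The difference was -3.65 ± 0.39 (log2, SE), 12.6-fold lower, with a limma adjusted p of 1.5e-06. The second bright probe set read 168.8 and 306.9 in whole seed, against 6589.1 and 7228.2 in leaf, a difference of -4.82 ± 0.45 (log2, SE) with a limma adjusted p of 2.9e-07. The third, dim probe set gave -1.37 and did not pass (limma adjusted p = 0.25). Among the 5367 named genes tested, 12.3% were called lower in whole seed and 6.76% higher, where a call needs at least a 2-fold difference with an adjusted p under 0.05.

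By the brightest probe set of each of the other genes, whole seed and leaf overlapped, and no difference passed the test. GSTU13 read 680.7 and 975.2 in whole seed, against 842 and 1127.3 in leaf (-0.25 ± 0.46, log2 and SE; limma adjusted p = 0.83). A dim probe set of GSTU13 read 29.1 and 19.3 in whole seed, below background, against 146.7 and 117.4 in leaf. Its groups did not overlap, but at -1.89 (log2) it did not pass (limma adjusted p = 0.26). GSTIR read 536 and 1979.7 in whole seed, against 794.9 and 2405.5 in leaf (-0.42 ± 0.81, log2 and SE; limma adjusted p = 0.84). GSTU30 read 12504.3 and 11427.2 in whole seed, against 10448.1 and 12030.6 in leaf (0.09 ± 0.95, log2 and SE; limma adjusted p = 0.98). The standard errors of GSTIR and GSTU30 leave room for differences of about 2-fold or more in either direction. They rest on a spread shared over all 10 groups. For GSTU30 the SD (log2) was 0.092 in whole seed and 0.144 in leaf, against 2.614 in endothelium and 1.956 in inner integument. For GSTIR it was 1.311 in whole seed and 1.116 in leaf.

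**Figure D3:**
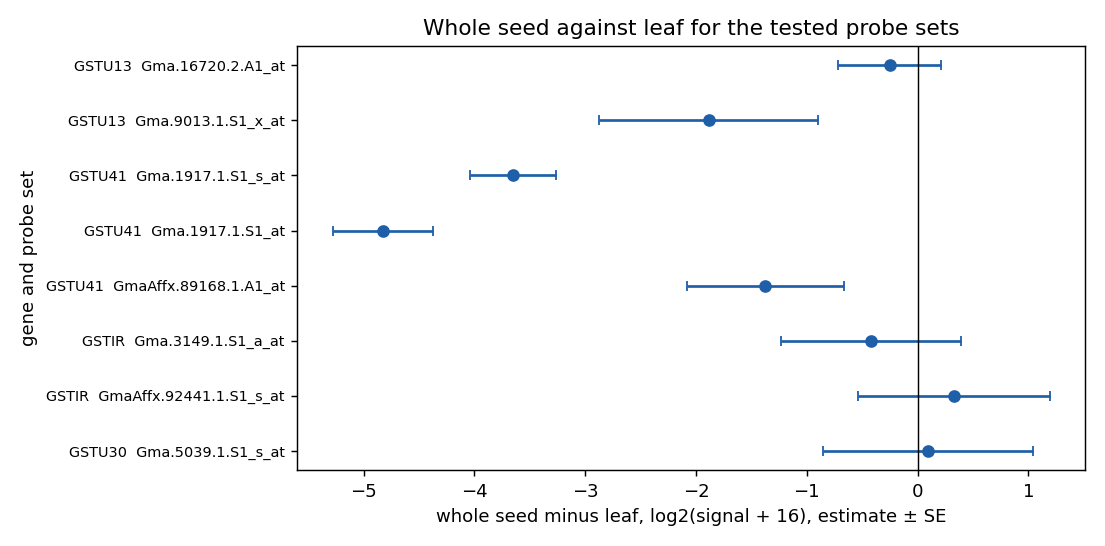
Whole seed minus leaf for the 8 tested probe sets of the 4 genes, as estimates in log2(signal + 16) with standard errors from limma over all 23 arrays. Both bright GSTU41 probe sets lie far below 0, at -3.65 and -4.82, and the brightest probe sets of GSTU13, GSTIR and GSTU30 lie within 0.5 of 0.

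Setting the whole seed beside its compartments, the 4 genes also differed. For GSTU30 the whole seed mean was 75.0% of the highest compartment, the outer integument, and 7 of the 8 compartments were below it. For GSTIR it was 21.4% of the endothelium mean, but 9.11% by whole seed replicate 1 alone and 33.7% by replicate 2 alone. For GSTU13 it was 11.5% and for GSTU41 3.11% of the suspensor mean, with 4 compartments above and 4 below the whole seed in each. Captured and ground samples were extracted with different reagents, so these shares carry that difference too.

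Over the 10 group means, the 4 genes were not close to each other. The highest Pearson correlation between any pair was 0.5, for GSTU13 and GSTU41, and the lowest was -0.256, for GSTU41 and GSTU30. Among 843 other genes with a symbol beyond a locus number, the pattern most like GSTU13 was that of MET2 (r = 0.914, and 0.852 without the 2 arrays of high background), followed by CYP82A3, a cytochrome P450 (0.828), and MYB60, a MYB-type transcription factor (0.814). Most like GSTU41 were MGD1, a galactolipid synthase (0.952), GOLS, a galactinol synthase (0.94), and INR1 (0.863). Most like GSTIR were H4 (0.871), ACS1 of ethylene synthesis (0.863) and SARK, a receptor-like kinase named for senescence (0.853). ACS1 was brightest in the epidermis and SARK in the endothelium. Most like GSTU30 were NRT1-3, a nitrate transporter (0.916), PRX2B, a peroxidase (0.892), and LOX9, a lipoxygenase (0.876). These correlations are over 10 group means that share arrays with every gene, and rank likeness only.

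The array named 33 other glutathione S-transferase genes, some through RefSeq synonyms where the symbol is a locus number. Of these, 25 were above background throughout at least 1 group and were tested, each by its brightest probe set, and 8 were not. Leaf was the brightest group for 11 of the 25, outer integument for 4, epidermis for 3, inner integument, embryo proper and suspensor for 2 each, and hilum for 1. Endothelium, endosperm and whole seed were the brightest group for none. For 13 of the 25 the brightest group overlapped the second, among them 5 of the 11 in leaf, 2 of the 4 in outer integument, all 3 in epidermis and neither of the 2 in suspensor. Of the 3 in epidermis, GSTU17 and GSTU35 were read by probe sets of 1 sequence cluster, so they may not count separately. By signal, GSTU13, GSTU41 and GSTIR had their highest mean in groups where 2 or 0 of the 25 did, and GSTU30 in the outer integument with 4 others. Over each array's own background, GSTU41 was close in suspensor and leaf, at 6.83 and 6.68 (log2). GSTU30 was by that measure higher in leaf, at 6.97, than in outer integument, at 6.78. GSTU13, GSTU41, GSTIR and GSTU30 were selected on their regional signal, so this placing is a description only. Some of the 25, such as GSTU58 and GSTU42, exceeded background throughout only 1 group, their brightest, so the filter favoured that group. No test was made of these counts. The same counts over all named genes are not given here, so they are not read as a trait of the family. The leaf arrays also had the lowest backgrounds, 86.3 and 93.05.

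**Figure D4:**
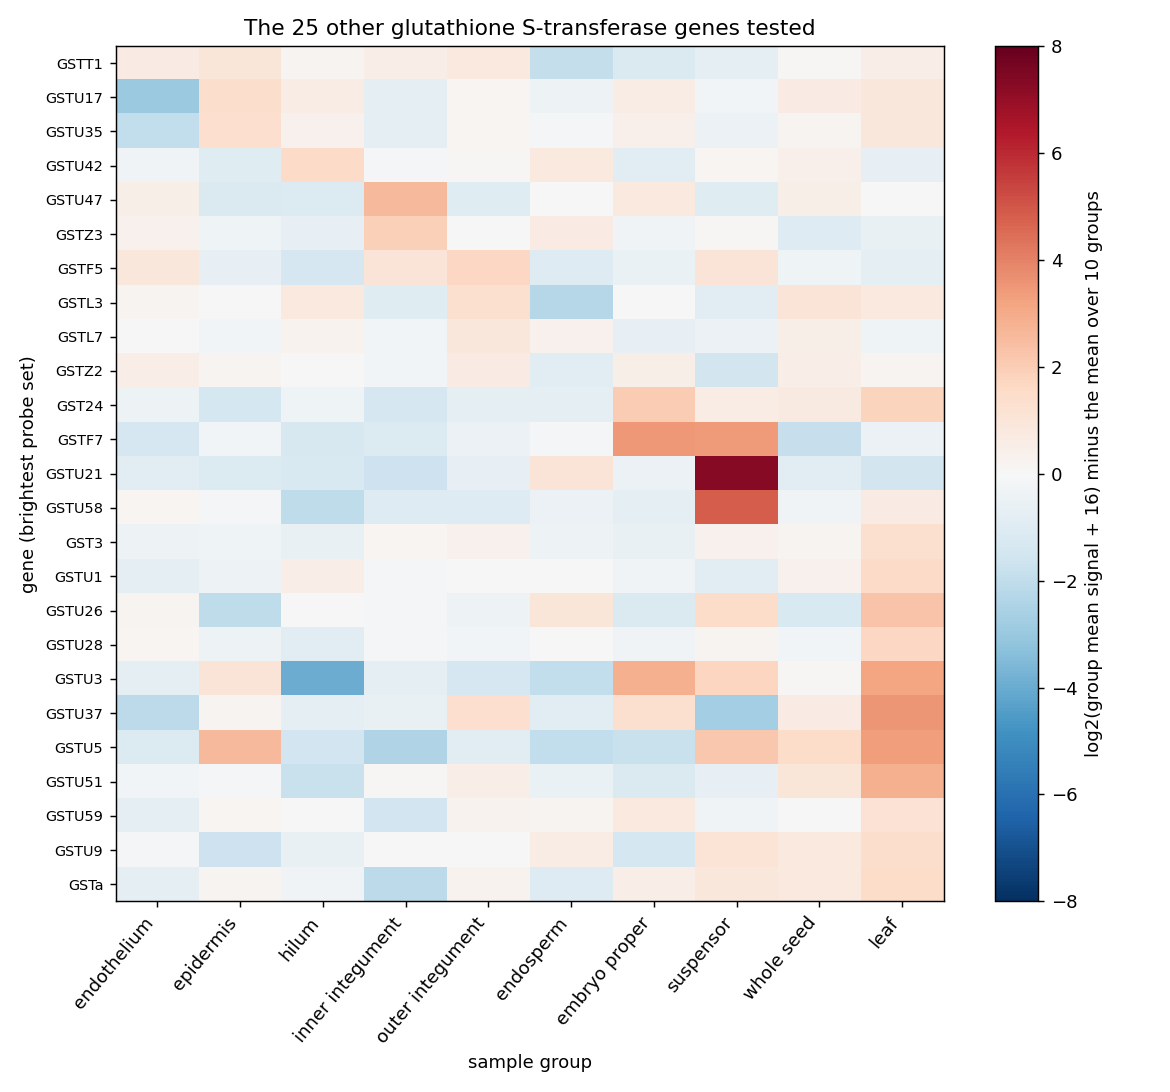
Levels of the 25 other glutathione S-transferase genes tested, by the brightest probe set of each gene, as log2(group mean signal + 16) minus the mean over the 10 groups of that gene. Rows are genes, sorted by their brightest group, and columns are groups; red is above and blue below the gene's own mean, GSTU21 and GSTU58 stand out in the suspensor, and the 11 lowest rows are brightest in leaf.

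Between embryo proper and suspensor, 3 of the 25 other genes were higher in the embryo proper and 5 lower (limma, by that call), against 15.3% higher and 13.9% lower over all named genes. The list's median difference was 0.09 (log2), against 0.06 over named genes and 0.07 over all tested probe sets. The tau-class gene GSTU21 had the widest gap, with a mean of 202.3 in the embryo proper, against 47540 in the suspensor (-8.04 ± 0.72, log2 and SE; limma adjusted p = 4.7e-08). GSTU58 was at least 16.1-fold and GSTU5 at least 9.1-fold lower in the embryo proper, where neither was above background. In the other direction, GSTU37 exceeded its suspensor level by at least 9.61-fold. GSTZ2 and GSTU47 were 4.83-fold and 4.45-fold higher there, with 1 of 3 suspensor arrays above background. GSTZ2 belongs to the zeta class, whose members act in tyrosine breakdown.

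For endosperm minus the mean of embryo proper and suspensor, 9 of the 25 genes were lower and 0 higher, against 14.0% lower and 9.47% higher over all named genes. The median was -0.34 for the list (log2), against 0.06 over named genes and 0.16 over all tested probe sets. GSTU3 was at least 7.51-fold lower (-4.30 ± 0.57, log2 and SE; limma adjusted p = 6.6e-06) and the phi-class GSTF7 at least 6.18-fold lower. The sides did not overlap for those 2 genes, but they did for GSTU58, at least 1.37-fold lower. An earlier count on these samples had already shown the direction of this list, so it is not independent evidence of it.

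For seed coat minus embryo and endosperm regions, 3 of the 25 genes were higher and 5 lower, against 14.9% higher and 10.7% lower over all named genes, with a list median of 0.04 (log2). GSTT1, of the theta class, was 4.39-fold higher (2.13 ± 0.37, log2 and SE; limma adjusted p = 8.9e-05), with no overlap. GSTL3, of the lambda class, was 2.63-fold higher and GSTZ2 2.02-fold. GSTU21 was 14.8-fold, GSTF7 9.78-fold and GSTU3 4.62-fold lower, and for each of the last 5 genes the sides overlapped.

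Within the coat, each region was set against the mean of the other 4, so these comparisons share arrays. In the endothelium 0 of the 25 genes were higher and 3 lower (5.31% and 3.67% over named genes), while GSTIR read highest there. GSTU17 was at least 2.99-fold and GSTU37 4.71-fold lower, and GSTU35, below background on both endothelium arrays, also passed. In the epidermis 3 were higher and 0 lower (5.01% and 5.14% over named genes), namely GSTU5 at 18.4-fold, GSTU3 at 8.24-fold and GSTU17 at 4.62-fold. GSTU17 and GSTU35 were read by probe sets of 1 sequence cluster, so their readings may not be independent. Without endothelium replicate 2 the endothelium count was 1, and without epidermis replicate 2 the epidermis count was 1, while it was 5 without suspensor replicate 1 and 5 without both arrays of high background.

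In the hilum 0 were higher and 3 lower (4.99% and 7.02% over named genes). GSTU3 was at least 1.66-fold lower there, GSTF5 4.96-fold and GSTZ3 2.13-fold, and only GSTF5 overlapped the other regions. The inner integument had 2 higher and 3 lower (10.2% and 12.7% over named genes). GSTU47 was 10.3-fold and GSTZ3 4.21-fold higher there, while GSTa was 5.18-fold, GSTL3 2.93-fold and GSTU5 at least 1.07-fold lower. In the outer integument, where GSTU30 was brightest, 2 were higher and 0 lower (5.66% and 3.84% over named genes), GSTU37 at 4.54-fold and GSTL3 at 2.41-fold. The list's median there was 0.51 (log2), against 0.04 over named genes. Without hilum replicate 1 the hilum count was 1, and without either outer integument array the outer integument count was 0. Without both arrays of high background the outer integument count was 4.

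For whole seed minus leaf, 4 of the 25 genes were lower in whole seed and 0 higher, against the 12.3% and 6.76% given above, with a list median of -0.70 (log2) against 0.14 over named genes. GSTU26 was at least 6.53-fold, GSTU3 8.47-fold and GSTU37 7.43-fold lower in whole seed, the direction in which GSTU41 passed. The count was 2 without whole seed replicate 1 and 1 without whole seed replicate 2, leaf replicate 1 or leaf replicate 2.

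**Figure D5:**
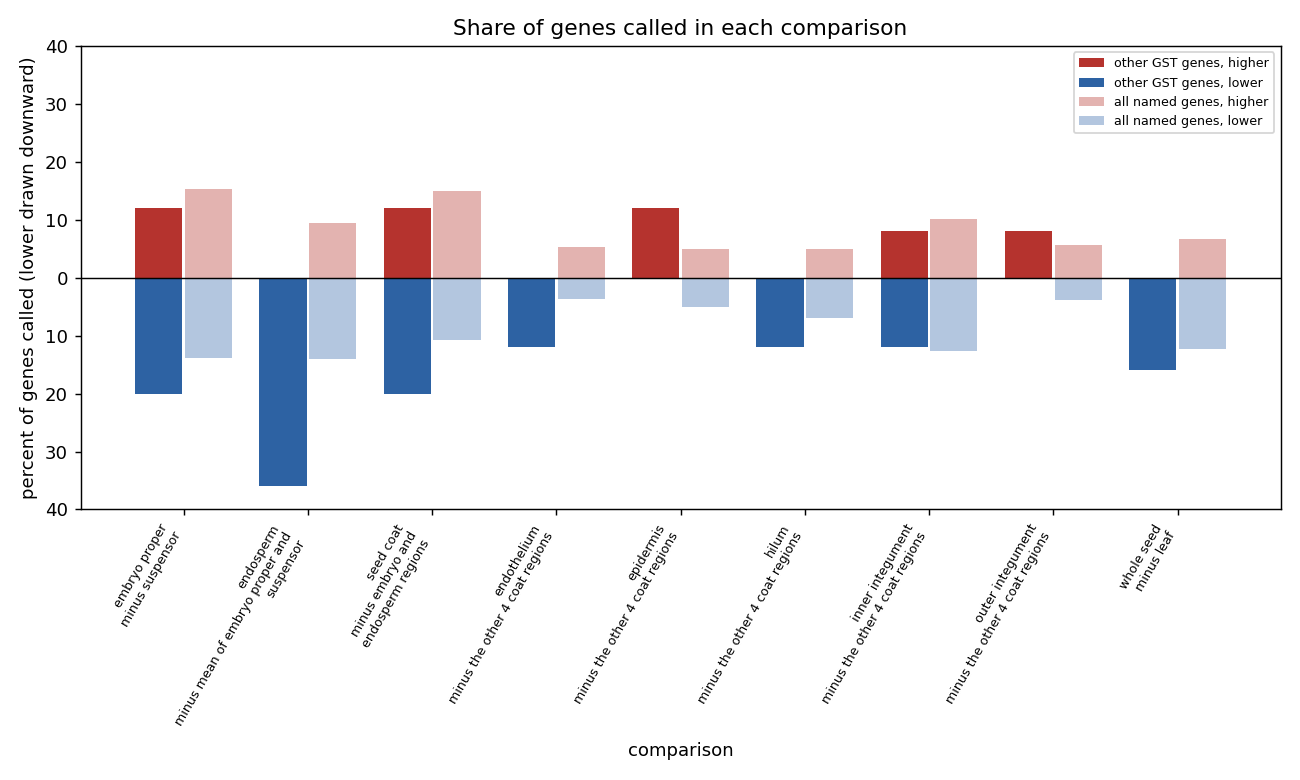
Share of the 25 other glutathione S-transferase genes called higher or lower in each comparison, beside the same share over the 5367 named genes, in percent. Calls need at least a 2-fold difference with an adjusted p under 0.05; the list has 9 genes lower in endosperm and none higher.

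Of 16 genes listed as partners that make, recycle or use glutathione or act beside it, 14 were tested. HGS, homoglutathione synthetase, was 5.89-fold lower in endosperm than in the mean of embryo proper and suspensor (-2.56 ± 0.21, log2 and SE; limma adjusted p = 1e-08), the 1 gene of 14 called there (14.0% lower and 9.47% higher over named genes), and 2.5-fold lower in endothelium than in the other 4 coat regions. GR, glutathione reductase, was 3.94-fold and DHAR3, a dehydroascorbate reductase, 3-fold higher in embryo proper than in suspensor, among 3 of 14 higher (15.3% over named genes). APX1, an ascorbate peroxidase, was 2.98-fold and GLYII-5, of the glyoxalase II family, 3.22-fold lower, among 3 of 14 lower (13.9% over named genes).

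In the coat, GLYI-6, of the glyoxalase I family, was 19-fold higher in the inner integument than in the other 4 regions and at least 3.18-fold lower in the hilum. GLYI-17 was 7.91-fold higher in the outer integument, 5.66-fold higher in the epidermis and at least 1.6-fold lower in the endothelium. DHAR4 was 2.58-fold higher in the epidermis and 3.01-fold lower in the inner integument. APX1 was 2.4-fold higher in the inner integument and 2.39-fold lower in the hilum, and GLYI-23 was 6.06-fold higher in the outer integument. The sides overlapped for GLYI-17 in the epidermis and endothelium, and for APX1 in the inner integument. Of the 14 partner genes, 0 were higher and 2 lower in endothelium (5.31% and 3.67% over named genes), 2 and 0 in epidermis (5.01% and 5.14%), 0 and 2 in hilum (4.99% and 7.02%), 2 and 1 in inner integument (10.2% and 12.7%), and 2 and 0 in outer integument (5.66% and 3.84%). With 14 genes, 1 gene is 7.14% of the list. In seed coat minus embryo and endosperm regions 2 were higher, GLYI-6 at least 1.36-fold and GLYI-17 at 2.92-fold, and 0 were lower (14.9% and 10.7% over named genes). For both genes the sides overlapped, and 5 of the 10 coat arrays were above background. In whole seed against leaf 2 were higher, GLYI-17 at 10.7-fold and GLYI-6 at least 3.78-fold, and 1 was lower, DHAR3 at 4.41-fold (6.76% higher and 12.3% lower over named genes).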

How the data were processed

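The authors deposited 1 intensity per probe set and array, on a linear scale. GCOS 1.3 is named per the submitters' processing notes, while how probes were summarised was not given in the sources used here. The trimmed mean over all probe sets lay between 499.94 and 501.2 on every array, so nothing was rescaled. Captured and ground samples used different extraction reagents, per the labels' protocols. The 25686 soybean probe sets that exceeded background throughout 1 group or more were tested as log2(signal + 16), so folds of dim genes are understated. limma 3.58.1 in R 4.3.3 fitted 10 groups to 23 arrays (lmFit, eBayes with trend, 13 residual degrees of freedom), with 2-sided contrasts and Benjamini-Hochberg adjustment over all tested probe sets. The fit was also run on simulated data in which only bright probe sets were changed and spread was equal in all groups. That run does not cover changes in dim probe sets or groups of unequal spread. The number of arrays limits precision.

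The platform annotation gave 1 gene for 8677 soybean probe sets, several for 370 and none for 28546. Of 6031 genes, 6010 were found in the RefSeq table of Glycine_max_v4.0, used for names only. The members and lists were chosen with earlier results of these data known. Named among the other transferases were, per comparison and direction, the 3 called genes with the largest folds, and among the glutathione partner genes the 2 largest. For likeness, the 3 genes with the highest Pearson correlation over group means were named. Alternatives were another offset, filter, scaling, array weights, left-out arrays and a replicate block.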

Additional observations from a re-analysis of the deposited data

How the results depend on the processing

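For 17 results (the 9 counts of called other transferases and 8 differences of the 4 genes), 536 alternative values were computed. Of these, 511 kept their direction and their side of the threshold, stayed within 1.5 times the count or moved by less than the replicate SD, 21 moved further, and 4 changed sign. The sign changes were all in whole seed minus leaf, in differences that passed no test: GSTIR became 0.51 without whole seed replicate 1 and 0.37 without leaf replicate 2, GSTU13 became 0.001 without whole seed replicate 1, and GSTU30 became -0.009 without leaf replicate 1. GSTU41 in whole seed minus leaf passed under each of 31 alternatives, from -4.06 to -3.24 (log2), with limma adjusted p from 3.2e-10 to 0.00017. GSTU13, GSTIR and GSTU30 passed under none of theirs. Leaving out 1 array at a time, whole seed minus leaf ran from -0.51 to 0.001 for GSTU13, -4.06 to -3.24 for GSTU41, -1.34 to 0.51 for GSTIR and -0.009 to 0.19 for GSTU30.

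The count for epidermis, 3, became 5 with array weights, and also 5 when suspensor replicate 1 and endosperm replicate 1 were left out. For hilum the count of 3 became 5 with an offset of 64 and 7 with array weights. The count of 2 in outer integument became 5 with array weights and 4 when those 2 arrays were left out. The count of 4 in whole seed minus leaf became 2 with an offset of 1, 2 with no filter and 7 with array weights. GSTU30 in outer integument minus whole seed was 0.41 (log2), against 0.17 with equal medians and 0.19 with quantile normalization. The cause of these shifts was not tested. Leaving out 1 array at a time gave counts of 7 to 10 for embryo proper minus suspensor, 6 to 10 for endosperm, 7 to 9 for seed coat, 1 to 3 for endothelium, 1 to 5 for epidermis, 1 to 4 for hilum, 4 to 5 for inner integument, 0 to 3 for outer integument and 1 to 4 for whole seed minus leaf. Where a group then held 1 array, it was assumed to vary like the others.

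With a replicate block the counts were 8, 9, 8, 3, 3, 3, 5, 2 and 4 in the same order, and GSTU41 in whole seed minus leaf was -3.65. Over 93 pairs of arrays with the same number, the correlation of their deviations had a median of 0.007 (-0.135 to 0.263) and passed 0.1 in 7 pairs. Pairs with different numbers were not set beside them. Whether samples with the same number share more than that number therefore cannot be told from these values. Levels under the background of an array have no order, which limits GSTIR and GSTU30 in the dim regions.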
